A study of Mus musculus with 6 samples.

Results

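The potassium channel subunit genes of the preosteoblast line MC3T3-E1 were followed through osteogenic differentiation. They were taken by gene symbol, as genes whose name starts with Kcn followed by letters and a number. Earlier results of these data were known when this rule was chosen. The arrays held 91 probe sets for 82 such genes, out of 17331 genes with a symbol and 41938 entries tested, an entry being a gene or an unnamed probe set. Another 10 genes of the mouse RefSeq table with such names were not analysed here.

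MC3T3-E1 is an established cell line from mouse calvaria that lays down a mineralizing matrix when it is given ascorbic acid and a phosphate donor. The undifferentiated group (3 arrays) was kept in alpha MEM with heat-inactivated serum and antibiotics. The differentiated group (3 arrays) spent 15 days in that medium supplemented with ascorbic acid and glycerol-2-phosphate, so time in culture, supplements and differentiation cannot be told apart. Both groups received the ethanol vehicle for 24 h, and the design text calls the samples biological triplicates of this 1 line. RNA was read as intensities on single-colour NimbleGen arrays, here on the log2 scale after quantile normalization, and the 3 arrays per group limit the precision. By its title the study set RUNX2 binding beside gene expression, and the binding data were not analysed here.

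Potassium channels let potassium leave the cell and so hold the membrane potential negative, which in turn sets how calcium and other ions enter. Voltage-gated channels are tetramers of alpha subunits that open on depolarization, inward rectifiers and two-pore-domain leak channels set the resting potential, and other channels open when calcium or sodium rises inside the cell. Auxiliary subunits (Kcnab, Kcne, Kcnip and Kcnmb genes) change the opening, assembly or transport of the alpha subunits. Calcium-activated channels, inward rectifiers and stretch-sensitive leak channels are among those recorded in bone-forming cells.

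Of 10 osteoblast markers 5 rose and none fell, with Alpl up by 3.02 and Dmp1 by 2.96 on the log2 scale, while Runx2 read 12.46 and 12.48 log2 intensity in undifferentiated and differentiated cells and Phex was not above background in either. Undifferentiated replicate 3 lay farthest from its group mean over all entries (root mean square deviation 0.208, against 0.0820 to 0.154 for the other arrays) and over the potassium channel genes (0.233, against 0.0759 to 0.166). It held the lowest undifferentiated value for 50 of the 82 genes. The scanner image names share 1 code over all undifferentiated and another over all differentiated arrays, so the effect of whatever that code marks cannot be told apart from that of differentiation. In bulk RNA, fewer cells with a transcript and less transcript per cell cannot be told apart either.

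Few potassium channel genes changed. Of 82, 3 rose and 1 fell in differentiated cells (limma, Benjamini-Hochberg adjusted p under 0.05), which is 4.88% of them. Over all entries 17.0% were called, 7.97% higher and 9.04% lower. The counts for each structural class below stand beside these same shares, and the classes are small. Kcnk2, a stretch-sensitive leak channel, rose 3.33-fold, Kcne4, an auxiliary subunit, rose 1.70-fold, and Kcnj2, an inward rectifier, rose 1.24-fold. Kcnh2, the mouse gene of the hERG channel, fell 1.54-fold. At an unadjusted p under 0.05 the counts were 10 higher and 6 lower, beside 14.4% and 15.8% of all entries. Kcnk2 alone was both called and past 2-fold, against 2.41% of all entries.

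The share called over all entries depended on intensity: it was 25.1% of entries above the median intensity of the table and 8.96% of those at or below it. Of the potassium channel genes 16 lay above that median, with 1 called, and 66 at or below it, with 3 called. The 3 values of each group did not overlap for 16 of the 82 genes, 10 higher and 6 lower, against 35.4% of all entries (17.4% higher and 18.0% lower). The median log2 fold change of the 82 genes was 0.06, beside 0.00 over all entries, and the median size of the change without its sign was 0.11, beside 0.16. For 77 of the 78 genes that did not pass, the 95% confidence interval of the log2 fold change lay within 1 in either direction, and for 55 it lay within 0.5. Kcnmb4 was the exception to the first of these counts. Leaving out differentiated replicate 1 or 2 left 2 calls (Kcnk2 and Kcnh2 in both cases). There were 7 calls without undifferentiated replicate 3 and 21 with array weights, a setting that gives less weight to arrays that deviate. The calls over all entries also rose with array weights, as given below under the processing, so this rise was not particular to these genes.

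**Figure D1:**
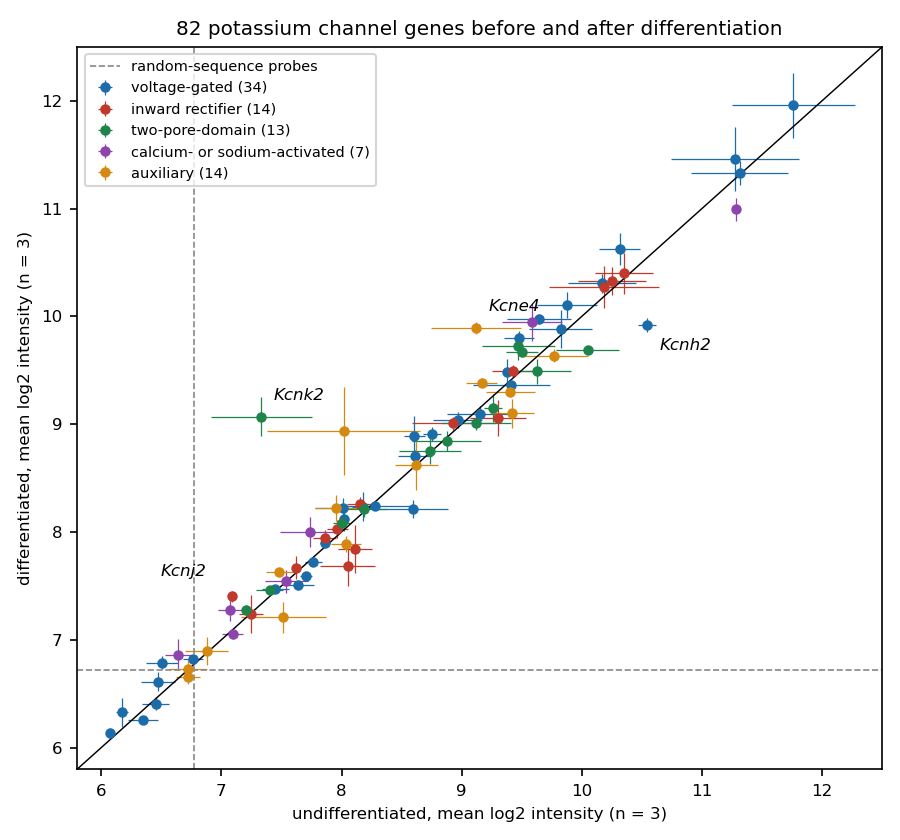
Mean log2 intensity of the 82 potassium channel genes in undifferentiated (horizontal) and differentiated cells (vertical), with SD bars over 3 arrays, coloured by structural class; the dashed lines mark the random-sequence probes. Most genes lie close to equal values, and the 4 genes that passed the test are named.

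Signal was judged against the row of random-sequence probes on each array. That row read 6.79, 6.80 and 6.73 log2 intensity on undifferentiated replicates 1 to 3 and 6.73, 6.69 and 6.73 on differentiated replicates 1 to 3. By this mark 71 of the 82 genes lay above background on all undifferentiated arrays and 74 on all differentiated arrays. Those shares were 86.6% and 90.2%, beside 92.4% and 93.3% of all entries. With a stricter mark of 1 log2 unit above the random-sequence probes, 51 and 55 genes were above (62.2% and 67.1%), beside 80.6% and 81.8% of all entries. All 7 measured skeletal muscle markers also lay above the random-sequence probes in both groups. So did 5 of 8 neuron markers in undifferentiated and 6 in differentiated cells. A place above these probes therefore does not by itself show that a gene is expressed. Probe sets differ in sequence and affinity, so intensities of different genes are not ranked here as amounts of RNA.

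At or below the random-sequence probes on all 6 arrays were 6 genes: the voltage-gated subunits Kcna2, Kcnc2, Kcnh7, Kcns3 and Kcnv1 and the auxiliary subunit Kcnmb2. Another 5 genes (Kcna6, Kcng3, Kcnip1, Kcnmb1 and Kcnn3) were above them on some arrays and not on others. Kcng3, a subunit that modifies other voltage-gated channels, and Kcnn3, a small-conductance calcium-activated channel, were at or below the probes on all undifferentiated arrays. They read 6.79 and 6.86 log2 intensity on average in differentiated cells, and neither passed (limma adjusted p = 0.0961 and 0.208).

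Kcnk2 encodes a leak channel of the TREK group, which opens on membrane stretch, with polyunsaturated fatty acids and with warmth. Its probe set read 6.92, 7.32 and 7.76 log2 intensity on undifferentiated replicates 1 to 3 and 8.94, 9.28 and 8.996 on differentiated replicates 1 to 3. All differentiated arrays were above all undifferentiated ones, and undifferentiated replicate 1 was close to the random-sequence probes, 0.13 above them on the log2 scale. The undifferentiated mean was 0.56 above them, so the size of the fold rests on a group close to background. The log2 fold change was 1.74 ± 0.20 SE (95% confidence interval 1.29 to 2.19, limma adjusted p = 0.000711), which ranked 251 by size of change among 41938 entries. Over the 19 alternatives in which Kcnk2 was tested it stayed called, with log2 fold changes of 1.47 to 2.13.

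The TREK relatives of Kcnk2 did not pass. Kcnk10 read 10.15, 9.75 and 10.25 log2 intensity before and 9.72, 9.66 and 9.67 after differentiation (log2 fold change -0.36, 95% confidence interval -0.67 to -0.06, limma adjusted p = 0.10). Its groups did not overlap, and it passed without undifferentiated replicate 2 (limma adjusted p = 0.0171). The value for Kcnk4 was 0.17 (-0.05 to 0.40), and whether these changes differ from that of Kcnk2 was not tested. Of 13 two-pore-domain genes Kcnk2 was the 1 that passed, and the other changes ran from -0.36 to 0.25 on the log2 scale. All 13 lay above the random-sequence probes on all 6 arrays, among them the acid-sensitive channels Kcnk3 (log2 fold change 0.07, -0.12 to 0.27) and Kcnk9 (-0.03, -0.36 to 0.30) and the alkali-activated channel Kcnk5 (-0.11, -0.44 to 0.22).

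Kcnh2 encodes the pore subunit of the rapid delayed rectifier current, known for its part in ending the cardiac action potential. It read 10.46, 10.55 and 10.61 log2 intensity on undifferentiated and 9.85, 9.94 and 9.98 on differentiated replicates 1 to 3. The groups were far apart relative to their spread, and every array was more than 3 log2 units above its random-sequence probes. The log2 fold change was -0.62 ± 0.09 SE (95% confidence interval -0.83 to -0.41, limma adjusted p = 0.00261), and the gene stayed called lower in all 21 alternatives (log2 fold changes of -0.67 to -0.57).

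Other genes of the ether-a-go-go family did not pass: the log2 fold changes were 0.31 for Kcnh3 (95% confidence interval 0.03 to 0.59, limma adjusted p = 0.128), 0.22 for Kcnh6 (-0.09 to 0.53) and 0.09 for Kcnh1 (-0.14 to 0.33), a channel studied for its presence in tumours. For Kcne2, an auxiliary subunit that can join the hERG channel, the value was -0.15 (-0.38 to 0.08). In all 34 voltage-gated alpha subunit genes were measured, of which none rose and Kcnh2 fell, beside 7.97% of all entries called higher and 9.04% lower.

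**Figure D2:**
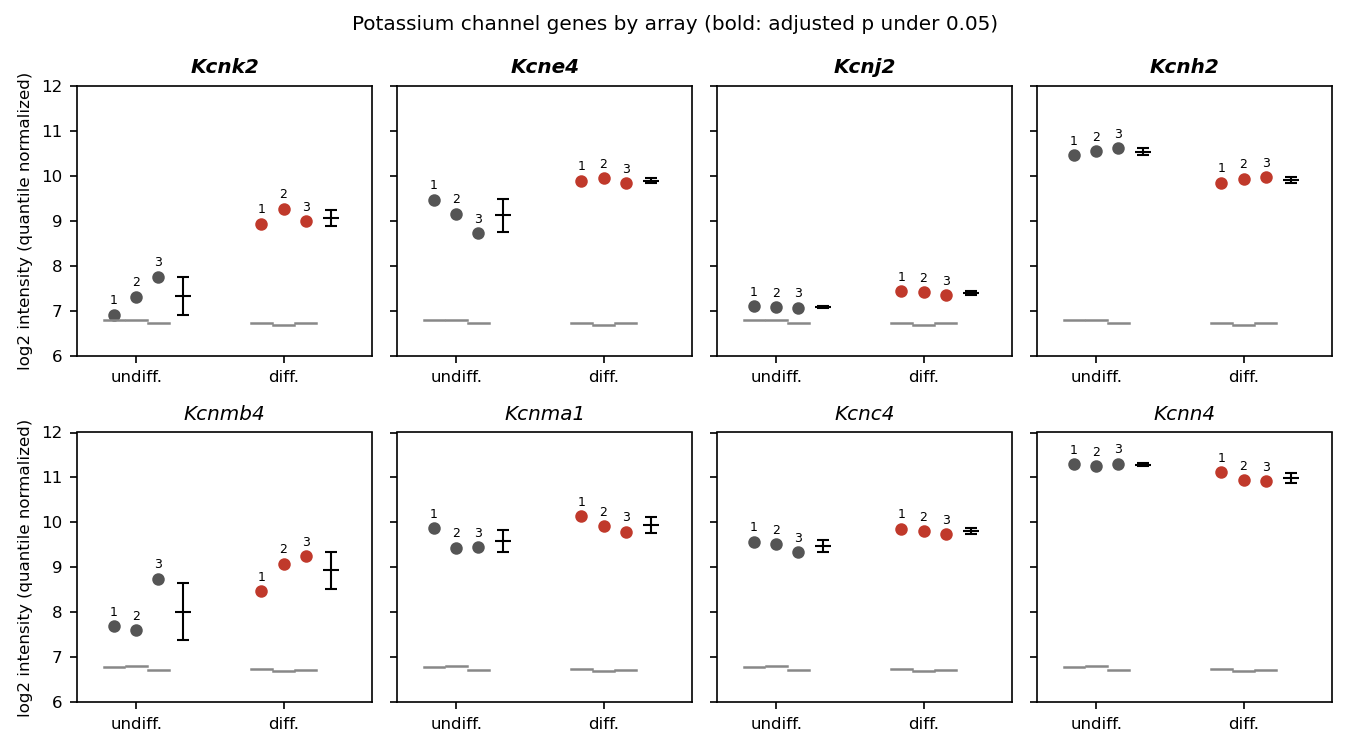
Log2 intensity of 8 potassium channel genes on each array, grouped as undifferentiated and differentiated, with array numbers 1 to 3, mean and SD, and short grey lines for the random-sequence probes. The 3 differentiated values of Kcnk2, Kcne4 and Kcnj2 lie above, and those of Kcnh2 below, all undifferentiated values. The same holds for Kcnc4 (above) and Kcnn4 (below), which did not pass the test.

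Kcne4 encodes a small protein with a single membrane span that lowers the current of Kcnq1 and of some Kv channels in expression systems. It read 9.48, 9.16 and 8.73 log2 intensity on undifferentiated and 9.90, 9.94 and 9.83 on differentiated replicates 1 to 3. The differentiated arrays were close together and above every undifferentiated array, of which replicate 3 was the lowest. The log2 fold change was 0.77 ± 0.17 SE (95% confidence interval 0.38 to 1.16, limma adjusted p = 0.0166). The call ended without differentiated replicate 1 (limma adjusted p = 0.0574) or 2 (0.0751), at log2 fold changes of 0.77 and 0.74.

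Kcnq1 and Kcna3, channel genes whose products Kcne subunits can join, did not pass. Kcnq1 read 11.65, 11.51 and 10.66 on undifferentiated and 11.77, 11.44 and 11.17 log2 intensity on differentiated arrays, which overlapped (log2 fold change 0.19, 95% confidence interval -0.39 to 0.77). Kcna3, a Kv channel best known from lymphocytes, stood at 0.07 (-0.20 to 0.34). The other Kcne genes, Kcne1, Kcne2 and Kcne3, did not pass either, with values of -0.15 to 0.15 on the log2 scale.

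Kcnj2 encodes a strong inward rectifier that anchors the resting potential, and mutations in the human gene cause Andersen-Tawil syndrome, which includes skeletal features. It read 7.10, 7.09 and 7.07 log2 intensity on undifferentiated and 7.44, 7.42 and 7.35 on differentiated replicates 1 to 3. The groups did not overlap, but both were close to background, 0.31 and 0.68 log2 units above the random-sequence probes on average. The log2 fold change was 0.32 ± 0.09 SE (95% confidence interval 0.12 to 0.51, limma adjusted p = 0.0365). Leaving out any single array other than undifferentiated replicate 3 ended the call (limma adjusted p of 0.0682 to 0.149). So did the deposited values (0.0697), median centring (0.0847) and an offset of 50 (0.0551).

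Of 14 inward rectifier genes, Kcnj2 was the 1 that passed. All 14 lay above the random-sequence probes on all 6 arrays. Kcnj15 had the lowest value of the class (log2 fold change -0.37, 95% confidence interval -0.69 to -0.04, limma adjusted p = 0.122), with groups that overlapped. The G protein-gated subunits Kcnj3, Kcnj5, Kcnj6 and Kcnj9 lay between 0.05 and 0.11 on the log2 scale. The pore subunits of the ATP-sensitive channel, which couples membrane potential to energy state, did not pass (Kcnj11 at 0.08, -0.26 to 0.41, and Kcnj8 at 0.04, -0.17 to 0.26). Nor did the sulfonylurea receptors that complete that channel, Abcc8 (0.20, -0.04 to 0.43) and Abcc9 (0.27, -0.04 to 0.59).

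None of the 7 genes grouped by name as calcium- or sodium-activated alpha subunits passed, a group that also holds Kcnu1, whose channel opens with alkaline pH and voltage. Kcnma1, the pore of the large-conductance calcium-activated channel, read 9.88, 9.44 and 9.45 log2 intensity on undifferentiated and 10.14, 9.91 and 9.79 on differentiated replicates 1 to 3. The groups overlapped (log2 fold change 0.36, 95% confidence interval 0.03 to 0.69, limma adjusted p = 0.136), and the gene passed without undifferentiated replicate 1 (adjusted p = 0.0486). Its auxiliary subunit Kcnmb4, best known from neurons, had the largest change among the genes that did not pass. Kcnmb4 read 7.70, 7.61 and 8.75 before and 8.48, 9.09 and 9.25 after differentiation, so undifferentiated replicate 3 lay inside the differentiated range. Its log2 fold change was 0.92 ± 0.31 SE (95% confidence interval 0.22 to 1.62, limma adjusted p = 0.0768), and without undifferentiated replicate 3 it was 1.28 (limma adjusted p = 0.00122). Kcnmb4 also passed with array weights and with the deposited values without quantile normalization, so its call depended on the normalization.

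The intermediate-conductance channel Kcnn4, which opens when calcium rises, read 11.30, 11.25 and 11.30 log2 intensity on undifferentiated and 11.12, 10.94 and 10.92 on differentiated replicates 1 to 3. All differentiated values lay below the undifferentiated ones (log2 fold change -0.29, 95% confidence interval -0.50 to -0.08, limma adjusted p = 0.0679). It passed with array weights and when only entries above the median intensity were tested (limma adjusted p = 0.0487). The small-conductance relatives Kcnn1 (0.32 and 0.34 log2 units above the random-sequence probes on average in the 2 groups) and Kcnn2 (0.30 and 0.56) did not pass. The smooth muscle partner of the large-conductance channel, Kcnmb1, was close to background in both groups (6.88 ± 0.18 and 6.89 ± 0.13 log2 intensity, SD, n = 3).

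Among voltage-gated genes that did not pass, Kcnc4, a fast A-type channel, had the lowest adjusted p. It read 9.58, 9.52 and 9.33 log2 intensity on undifferentiated and 9.86, 9.80 and 9.73 on differentiated replicates 1 to 3, without overlap (log2 fold change 0.32, 95% confidence interval 0.10 to 0.55, limma adjusted p = 0.0588). Kcnd3, another A-type channel, read 8.60, 8.88 and 8.30 before and 8.26, 8.26 and 8.12 after differentiation (log2 fold change -0.38, 95% confidence interval -0.71 to -0.05, limma adjusted p = 0.109). It passed without undifferentiated replicate 3 (limma adjusted p = 0.00855). Its other probe set, for a different transcript, gave the opposite sign at 0.15 (-0.13 to 0.43), and the relatives Kcnd1 and Kcnd2 stood at 0.14 and -0.13.

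For the potassium channel genes the undifferentiated arrays were the more spread. The SD was larger in the undifferentiated group for 65 of the 82 genes, with a median of 0.165 against 0.0839 in the differentiated group. Their root mean square deviation from the group mean was 0.147, 0.166 and 0.233 on undifferentiated and 0.115, 0.0759 and 0.107 on differentiated replicates 1 to 3. Over all entries it was 0.130, 0.154 and 0.208 on undifferentiated replicates 1 to 3. On differentiated replicates 1 to 3 it was 0.134, 0.0820 and 0.133. Undifferentiated replicates 2 and 3 were thus the more spread over all entries too, while replicate 1 lay within the differentiated range.

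Of 14 auxiliary subunit genes Kcne4 was the 1 that passed. The beta subunit genes of the Kv channels did not: Kcnab1 stood at -0.31 on the log2 scale (-0.70 to 0.08), Kcnab2 at 0.22 (-0.01 to 0.44) and Kcnab3 at -0.32 (-0.60 to -0.04). The groups did not overlap for Kcnab2 and Kcnab3. The calcium-sensing Kcnip genes, which join A-type channels, ran from -0.11 to 0.26 on the log2 scale.

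**Figure D3:**
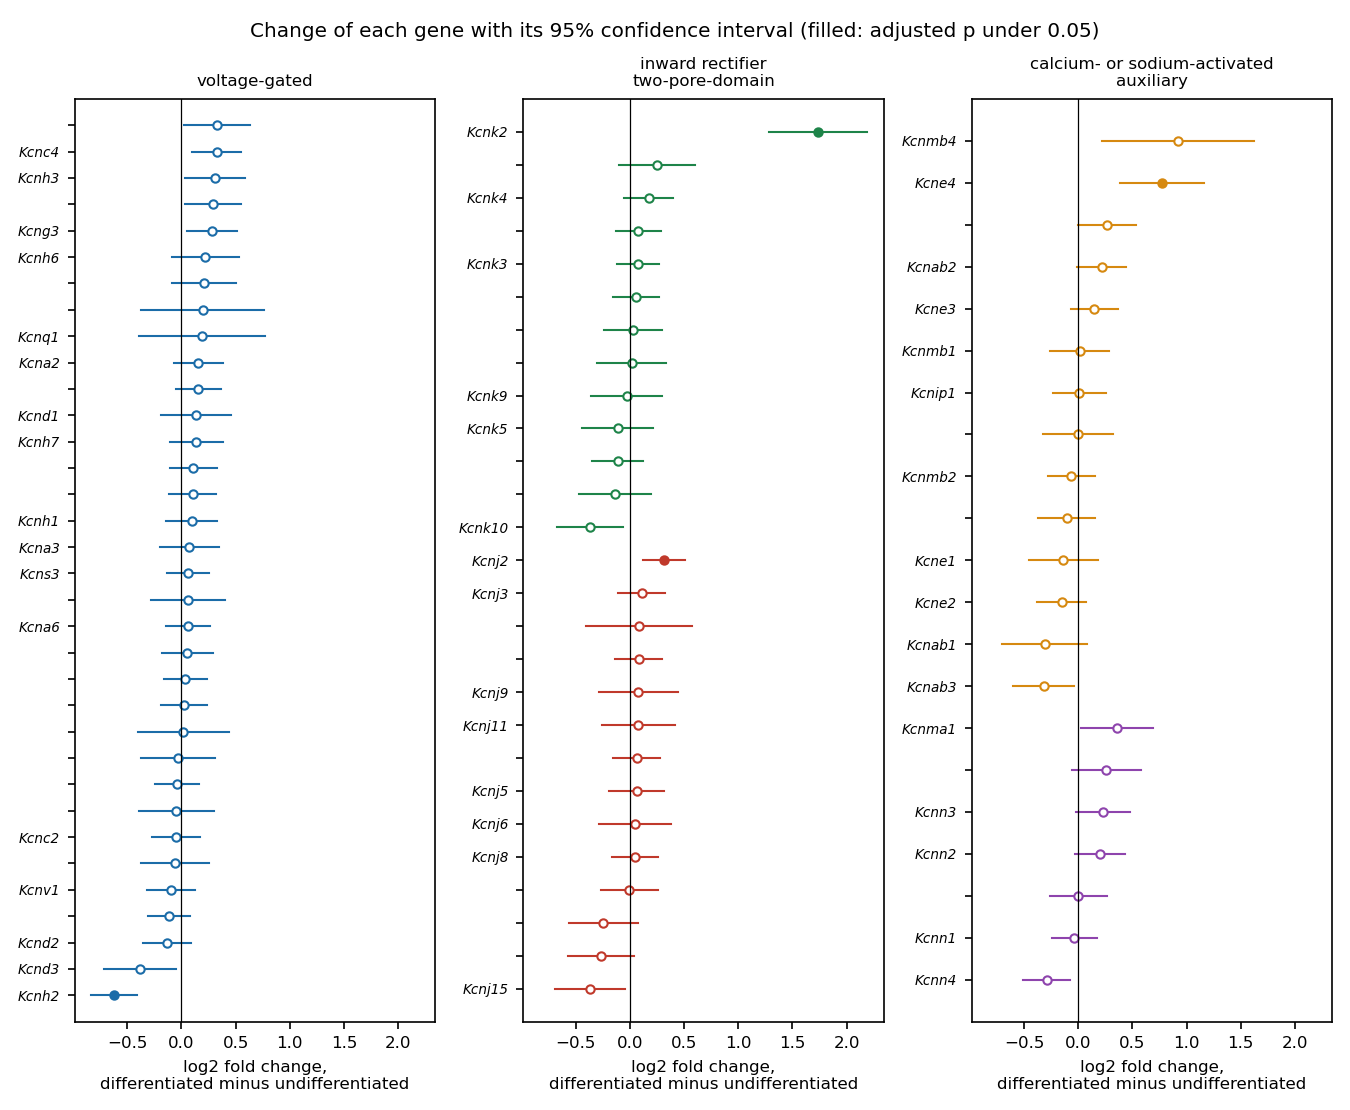
Log2 fold change (differentiated minus undifferentiated) of all 82 potassium channel genes with 95% confidence intervals from limma, by structural class; filled points passed the test and genes described in the text are named. Kcnk2 stands at 1.74 and Kcnh2 at -0.62, and most other intervals cross 0.

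Since the study concerned RUNX2, promoters were searched for the RUNX motif in the form TGTGGT and its reverse complement ACCACA, which cannot overlap each other. Other forms of the motif were not searched and are not marked below. RefSeq promoter windows (build GRCm38.p6, 250 bases before an annotated start) matched 61 of the 82 genes by symbol, the 4 called genes among them. The motif stood in 8 of 86 such windows (9.30%), against 14.0% of 32851 windows of that length over all genes. The windows differed in base composition, with a median GC content of 58.8% in those of the potassium channel genes and 52.4% over all, and the part of this in the shares was not tested. None of the windows of Kcnk2 (4 starts), Kcnh2, Kcne4 or Kcnj2 held it, which says only that these letters are not in those stretches. Kcnn4 held 4 matches, which begin 226, 213, 190 and 102 bases before its start. The windows of the largest rise, of the called fall and of Kcnn4, chosen after its matches were seen, are printed 5′ to 3′ along the gene, with motif matches in capitals. They are Kcnk2 (the start farthest upstream, chr1:189402274-189402523, minus strand), Kcnh2 (chr5:24329592-24329841, minus strand) and Kcnn4 (chr7:24370013-24370262, plus strand).
Kcnk2: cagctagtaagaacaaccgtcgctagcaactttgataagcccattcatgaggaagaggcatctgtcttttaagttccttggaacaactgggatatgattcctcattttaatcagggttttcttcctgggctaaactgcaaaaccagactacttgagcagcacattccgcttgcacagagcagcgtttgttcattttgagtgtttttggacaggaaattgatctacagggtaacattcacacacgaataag
Kcnh2: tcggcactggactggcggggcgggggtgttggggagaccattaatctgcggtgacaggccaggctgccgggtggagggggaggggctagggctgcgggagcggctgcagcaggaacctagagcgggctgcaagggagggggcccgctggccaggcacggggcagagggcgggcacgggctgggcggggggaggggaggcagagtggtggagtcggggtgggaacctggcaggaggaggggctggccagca
Kcnn4: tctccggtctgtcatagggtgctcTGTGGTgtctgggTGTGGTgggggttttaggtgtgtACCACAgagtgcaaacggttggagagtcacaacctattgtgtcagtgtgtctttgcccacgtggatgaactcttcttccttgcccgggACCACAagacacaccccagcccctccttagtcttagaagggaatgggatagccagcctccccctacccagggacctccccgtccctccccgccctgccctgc

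Genes that work with potassium channels were counted beside them from a list of 53, of which 49 were measured: associated proteins, the sodium-potassium pump, cation-chloride cotransporters, exchangers that move sodium against calcium, and other potassium-permeable channels. Of these, 8 rose and none fell (16.3%, beside 17.0% of all entries called in either direction and 7.97% called higher). The sodium-potassium pump, which builds the gradient that the channels use, had 3 of 13 genes higher: the beta subunit Atp1b1 by 1.04 ± 0.10 SE on the log2 scale (limma adjusted p = 0.000271), the beta subunit Atp1b3 by 0.45 and the regulator Fxyd1 by 1.41. Atp1b1 read 11.80 ± 0.14 and 12.84 ± 0.02 log2 intensity (SD, n = 3 per group) before and after differentiation.

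Of 9 cation-chloride cotransporters 3 rose. The potassium-chloride cotransporters Slc12a4 and Slc12a7, which carry potassium out of cells, rose by 0.45 (limma adjusted p = 0.0118) and 0.41 (limma adjusted p = 0.0428) on the log2 scale. Slc12a1, best known from the kidney, rose by 0.71. It lay 0.99 log2 units above the random-sequence probes on average in undifferentiated and 1.75 in differentiated cells, so the undifferentiated group missed the stricter mark. Slc12a2, which carries sodium, potassium and chloride into cells, stood at -0.30 (-0.65 to 0.06). The mitochondrial sodium-calcium exchanger Slc8b1 rose by 0.81. Without differentiated replicate 2 there were 5 calls, with Atp1b3 (limma adjusted p = 0.0532), Slc12a4 (0.0776) and Slc12a7 (0.154) lost. Omitting undifferentiated replicate 1 or 2, or differentiated replicate 1, also ended the call of Slc12a7 (0.116 to 0.145). With the deposited values and with median centring, Slc12a4 (0.0501 and 0.0764) and Slc12a7 (0.0816 and 0.108) did not pass.

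**Figure D4:**
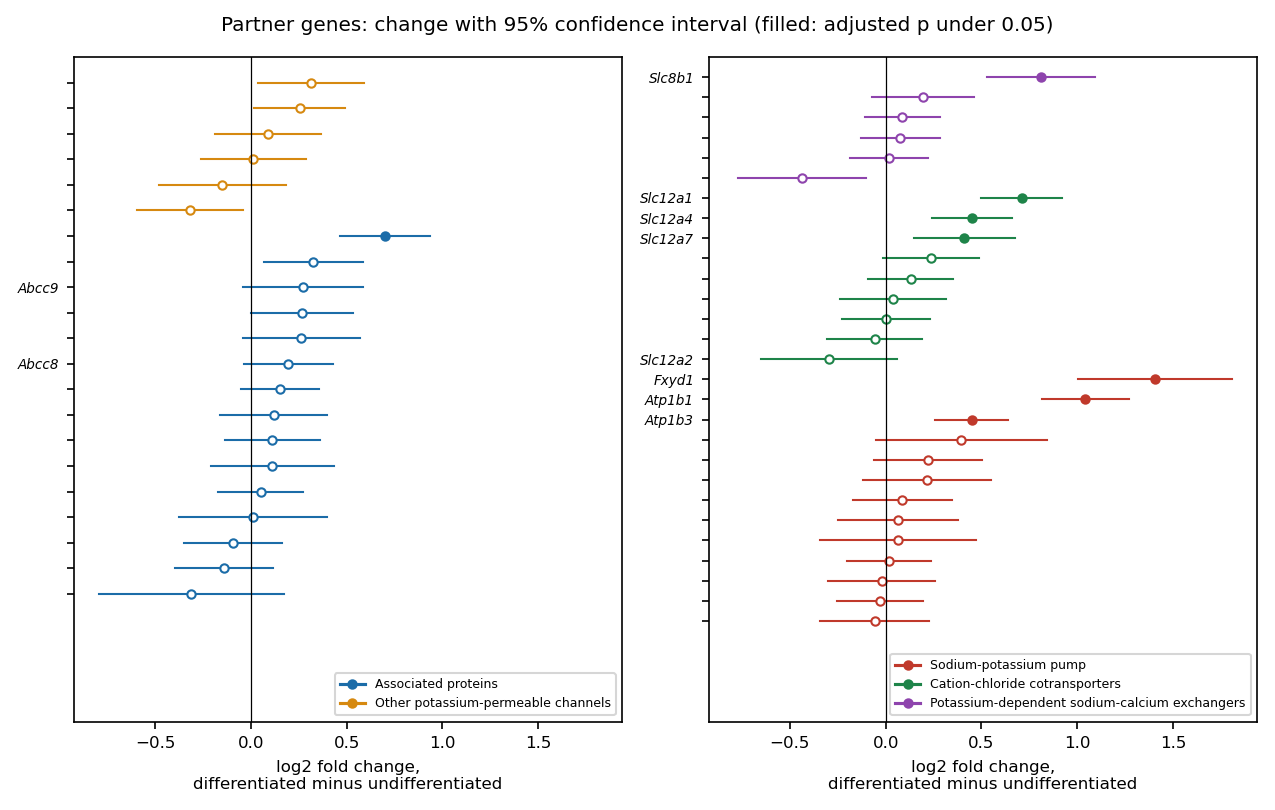
Log2 fold change (differentiated minus undifferentiated) of the 49 measured partner genes with 95% confidence intervals from limma; filled points passed the test and genes described in the text are named. The 8 filled points all lie above 0, with Fxyd1 at 1.41 and Atp1b1 at 1.04.

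Markers of other cell types in which these channels are well known were read on the same arrays. The counts of these short lists stand beside 7.97% of all entries called higher and 9.04% called lower. Each summed level is weighted to the brightest probe sets of its list. Of 6 smooth muscle markers 4 rose (Acta2, Myh11, Smtn and Tagln), and their summed level on the log2 scale ran from 12.92 to 13.03 in undifferentiated and from 13.80 to 13.86 in differentiated arrays, with all 6 above the random-sequence probes in both groups. None of 8 neuron markers passed, with summed levels of 12.60 to 13.09 and 12.80 to 13.19. Elavl4 and Map2 were not above the random-sequence probes on any array. Rbfox3, Syp and Tubb3 were far above them, with group means of 11.08 to 11.46 log2 intensity. Of 6 cardiac markers 2 rose (11.23 to 11.55 and 11.63 to 11.77), and of 7 skeletal muscle markers 1 rose (12.22 to 12.66 and 12.45 to 12.74). Actn2, among the called cardiac markers, was above the random-sequence probes on 1 of 3 undifferentiated arrays. Of 6 endothelial markers 2 rose (11.13 to 11.24 and 11.55 to 11.60), with Cdh5 not above background. Chondrocyte markers gave 1 higher of 6 (12.61 to 12.91 and 12.84 to 12.94), macrophage and osteoclast markers 1 higher of 5 (14.26 to 14.33 and 15.22 to 15.25), and adipocyte markers 1 lower of 6 (11.44 to 11.84 and 11.58 to 11.75). The summed macrophage and osteoclast level was nearly all Ctsk (14.22 and 15.20 log2 intensity on average), and the other markers of that list, Acp5, Adgre1, Csf1r and Lyz2, read 7.62 to 8.08 and did not pass. The part of all these markers in the changes of Kcnk2, Kcne4, Kcnj2 and Kcnh2 was not tested.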

How the data were processed

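RNA of 3 undifferentiated and 3 differentiated MC3T3-E1 samples was measured on single-colour arrays. The deposited values are intensity values on a linear scale made by the authors with RMA, per the submitters' processing notes and the file headers. The sources used here do not give the software version, the design build or whether the arrays were normalized together. Another table of the whole series holds the same values, with differentiated replicates 1 and 2 exchanged, and each file was kept with the sample it is listed under.

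The deposited intensity values were put on the log2 scale. Sorted values differed by a median of up to 0.135 between arrays, above the limit of 0.02, so they were quantile normalized together. Of 42586 probe sets, 17849 were named by accession and 130 by name through the RefSeq table of build GRCm38.p6. The probe set with the highest mean stood for a gene. Groups were fitted with limma 3.58.1 in R 4.3.3 (lmFit, eBayes, two-sided, no covariate), adjusted over 41938 entries. Fold changes are differentiated over undifferentiated.

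Named genes were every called member, the 3 members per class with the highest mean, the 6 members not called with the largest change, 9 genes fixed whatever their result, called partner genes and osteoblast markers. Some of these are not reported here. Members and lists were chosen with earlier results of these data known. Scripts were tested on simulated data. Protein sequences were not used here.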

Additional observations from a re-analysis of the deposited data

How the results depend on the processing

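Kcnk2 and Kcnh2 kept their direction and their call in each of the 19 and 21 alternatives that tested them. No alternative turned the direction of a called gene. The count of 3 potassium channel genes called higher was 1 with a filter at the 25th percentile of mean intensity (41 genes tested), 0 with one at the 50th (16 tested), 1 at an adjusted p under 0.01, 12 with array weights, and 1 to 4 when single arrays were left out. The count of 1 called lower was 2 with the 50th percentile filter, 9 with array weights, and 1 to 3 when single arrays were left out. All entries called, 7135 of 41938, numbered 15846 with array weights and 3184 at an adjusted p under 0.01. They numbered 2960 when only entries with a symbol were tested (fewer entries by construction), and 3134 to 9470 when single arrays were left out. The 8 partner genes numbered 15 with array weights and 5 to 9 when single arrays were left out. These counts stayed within 1.5 times with the deposited values, median centring, cyclic loess, an offset of 50, averaged or separate probe sets, robust eBayes with a trend, and the series table. The genes behind a count could change: with the deposited values Kcnmb4 was called higher and Kcnj2 was not.

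Replicate numbers as a block gave 6 higher and 2 lower potassium channel genes. A replicate block by the numbers in the array file names gave 6 and 3. Both blocks kept the 4 calls and added Kcnc4, Kcnd3 and Kcnmb4. Deviations of same-numbered arrays correlated at 0.33, -0.14 and 0.46 by title number and at -0.01, 0.43 and 0.46 by file number, so the numbers were not taken to pair the samples. The cause of the other differences was not tested. Signal close to the random-sequence probes limits the reading of Kcnj2, of the undifferentiated levels of Kcnk2 and Slc12a1, and of Kcnn1, Kcnn2 and Kcnmb1.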

Other observations

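Kcnj6, a G protein-gated inward rectifier, had 4 probe sets. Their log2 fold changes ran from -0.11 to 0.06, and none passed. Their levels are not compared, since probe sets differ in sequence and affinity.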
